A study of Mus musculus with 6 samples.

Results

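Triglyceride is built in the liver by a short chain of enzymes, and the genes followed here are 9 of those enzymes together with Pparg, the nuclear receptor PPARγ. The 10 genes, Pparg, Gpam, Agpat2, Agpat3, Lpin1, Lpin2, Lpin3, Dgat1, Dgat2 and Mogat1, were chosen by symbol for their role. All 10 were found among the 18453 genes with a count in any library and among the 21362 rows of the deposited FPKM table. In livers transduced with AAV8-TBG-Cre, Mogat1 was 3.08-fold, Agpat2 1.52-fold and Pparg 1.35-fold lower than in livers transduced with AAV8-TBG-GFP (edgeR, 3 libraries in each group), with unadjusted p-values under 0.05 that did not pass adjustment over all genes. Dgat2, Lpin1 and Lpin2 had lower means with overlapping groups, and Gpam, Agpat3, Lpin3 and Dgat1 differed by at most 0.16 on the log2 scale.

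The RNA-seq libraries came from the livers of 6 Mettl14f/f males, 3 with AAV8-TBG-GFP (labelled WT) and 3 with AAV8-TBG-Cre (labelled METTL14 KO). All mice carried the floxed Mettl14 alleles and all were fed HFD (high-fat diet) from 8 weeks of age, received a vector through the tail vein after 10 weeks of HFD, and gave liver RNA 8 weeks after that. The TBG promoter (thyroxine-binding globulin) is used to restrict Cre, or GFP in the controls, to hepatocytes, which leaves the Mettl14 alleles of other liver cells untargeted. The comparison asks how these genes are expressed in a fatty liver once METTL14, a subunit of the enzyme that writes m6A on RNA, has been targeted in hepatocytes.

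Most hepatic triglyceride is assembled by the glycerol phosphate route. GPAM, an acyltransferase of the mitochondrial outer membrane, joins a fatty acyl group to glycerol 3-phosphate, AGPAT enzymes add another to give phosphatidic acid, lipins remove the phosphate to give diacylglycerol, and the DGAT enzymes attach the last acyl group. MOGAT1 makes diacylglycerol from monoacylglycerol, bypassing the earlier steps, and PPARγ, which binds DNA as a partner of RXR, is the main driver of the lipid storage program in adipocytes and is induced in fatty livers, where its targets include lipid droplet proteins.

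The promoters of the 3 genes that were lower are shown because PPARγ and its partners bind DNA through the motif AGGTCA. Each window runs from 250 bases before to 50 bases after a RefSeq transcription start in GRCm38.p6 (the assembly of mm10, the build in the submitters' processing notes), is written 5′ to 3′ on the strand of the gene, and carries AGGTCA in capitals where the motif lies on that strand. The Pparg windows printed are chr6:115360894-115361193 on the plus strand, the most upstream start, and chr6:115421816-115422115 on the plus strand, the downstream start whose last bases open the PPARγ2 transcript. Another upstream Pparg start, with the window chr6:115362099-115362398 on the plus strand and AGGTCA at -9, is not printed. The Agpat2 window is chr2:26604368-26604667 on the minus strand, and the Mogat1 window is chr1:78510810-78511109 on the plus strand.
Pparg upstream start: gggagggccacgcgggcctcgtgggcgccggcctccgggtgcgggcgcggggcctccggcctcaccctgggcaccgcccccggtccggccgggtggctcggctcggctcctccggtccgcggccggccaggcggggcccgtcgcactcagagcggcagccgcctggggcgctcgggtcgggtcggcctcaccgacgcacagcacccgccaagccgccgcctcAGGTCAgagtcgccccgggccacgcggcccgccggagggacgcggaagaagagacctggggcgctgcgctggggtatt
Pparg downstream start: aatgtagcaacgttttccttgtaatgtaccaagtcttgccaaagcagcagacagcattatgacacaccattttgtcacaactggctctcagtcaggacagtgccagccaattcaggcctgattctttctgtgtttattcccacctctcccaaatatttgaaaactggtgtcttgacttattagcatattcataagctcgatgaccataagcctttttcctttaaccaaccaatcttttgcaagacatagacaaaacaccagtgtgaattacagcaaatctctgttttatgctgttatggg
Agpat2: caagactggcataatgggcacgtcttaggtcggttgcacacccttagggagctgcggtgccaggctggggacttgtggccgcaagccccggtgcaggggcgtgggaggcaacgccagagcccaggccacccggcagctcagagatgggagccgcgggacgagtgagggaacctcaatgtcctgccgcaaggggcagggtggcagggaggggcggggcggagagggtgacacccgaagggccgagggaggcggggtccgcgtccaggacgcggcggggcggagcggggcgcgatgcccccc
Mogat1: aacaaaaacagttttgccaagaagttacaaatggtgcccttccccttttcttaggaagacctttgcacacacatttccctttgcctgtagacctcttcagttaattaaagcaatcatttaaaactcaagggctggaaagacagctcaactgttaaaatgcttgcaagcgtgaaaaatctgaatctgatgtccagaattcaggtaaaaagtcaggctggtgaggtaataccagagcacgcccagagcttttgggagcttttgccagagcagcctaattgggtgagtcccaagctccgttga

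RefSeq gave 14 windows for 8 of the 10 genes. AGGTCA, searched on both strands, stood in 4 of the 14, at -28 and -9 from the upstream Pparg starts, at -74 from the Lpin1 start and at -196 from a Gpam start. Across all 32851 windows of that length, 16.3% held it. The motif pair AGGTCANAGGTCA, which contains the shorter motif and to which PPARγ and RXR bind together, was in 0 of the 14 windows and in 0.0396% of all windows. CACGTG, the E-box of basic helix-loop-helix factors, was in 2 of the 14 (Lpin2 and Lpin3) and in 7.15% of all windows. These matches describe letters in the windows and no binding was measured.

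Library totals lay between 20356459 and 21010524 expected counts. Mettl14 itself had 124, 126 and 111 counts in the GFP livers. The livers labelled as Cre held 104, 131 and 101. After TMM scaling the groups did not overlap (5.81 to 6.43 against 4.86 to 5.38 CPM), but the difference of -0.29 on the log2 scale (SE 0.15, edgeR adjusted p = 0.337) did not pass the test, so the targeted gene is only a weak check of the labels. Whole-liver RNA includes cells the vector does not target, and fewer cells of a type and less RNA per cell cannot be told apart in it. Hepatocyte markers were abundant in all 6 libraries (median log2 fold change of 8 markers, -0.074). Among them Ttr was lower (-0.57, edgeR unadjusted p = 0.0312) and Ahsg higher (0.53, edgeR unadjusted p = 0.0481) in Cre livers. For 3 other cell types the summed level of the markers was higher in Cre livers, though not every marker was. The sum of 8 macrophage and Kupffer cell markers was 199 to 230 CPM (TMM-normalized counts scaled to a common library size) in GFP and 312 to 506 CPM in Cre livers. That of 8 stellate cell and fibroblast markers was 205 to 309 and 425 to 913 CPM, and that of 7 cholangiocyte markers 34.2 to 43.8 and 64.4 to 117 CPM. By the threshold of an unadjusted p under 0.05 and a fold of at least 1.2, 6, 4 and 7 of the markers on these lists were higher. Of all genes tested, 12.0% were. Macrophage markers that did not pass were Marco (log2 fold change -0.75) and Clec4f (0.29). Stellate cell markers that did not pass were Des (0.13), Lrat (-0.25), Dcn (0.38) and Acta2 (-0.37). The 6 endothelial markers summed to 122 to 188 and 123 to 147 CPM. All 6 had negative log2 fold changes. By the same threshold 1 was lower, Stab2 (-0.32, edgeR unadjusted p = 0.0129), where 8.41% of all genes tested were. None of these markers was at 0 in every library, and their part in the levels of the 10 genes was not tested. The library names come in a short form (GFP replicates 1 and 2, Cre replicate 1) and a long form (GFP replicate 3, Cre replicates 2 and 3), a difference that the labels do not explain.

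By FPKM (fragments adjusted for transcript length and for library size), which allows levels to be compared between genes, Dgat2 was the most abundant of the 10 at 174.33 to 346.13 FPKM over the 6 livers, followed by Agpat2 at 94.35 to 149.76 FPKM and Agpat3 at 83.69 to 117.3 FPKM. Lpin1 ranged over 19.91 to 111.08 FPKM, Lpin2 over 34.5 to 74.96 FPKM and Gpam over 27.66 to 36.82 FPKM. Dgat1 stood at 9.27 to 12.49 FPKM, Pparg at 7.81 to 11.69 FPKM, Mogat1 at 0.73 to 6.58 FPKM and Lpin3 at 1.41 to 1.78 FPKM. In the order of mean FPKM, Dgat2 exceeded Agpat2, Gpam exceeded Dgat1 and Pparg exceeded Mogat1 in 6 of 6 livers. Neighbours whose order changed between livers were Agpat2 and Agpat3 (5 of 6 in the order of the means), Agpat3 and Lpin1 (4 of 6), Lpin1 and Lpin2 (3 of 6), Lpin2 and Gpam (5 of 6), Dgat1 and Pparg (4 of 6) and Mogat1 and Lpin3 (4 of 6). At the last step Dgat2 was above Dgat1 in every liver, and Mogat1 and Lpin3 were the 2 lowest of the 10 genes in 6 of 6.

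**Figure D1:**
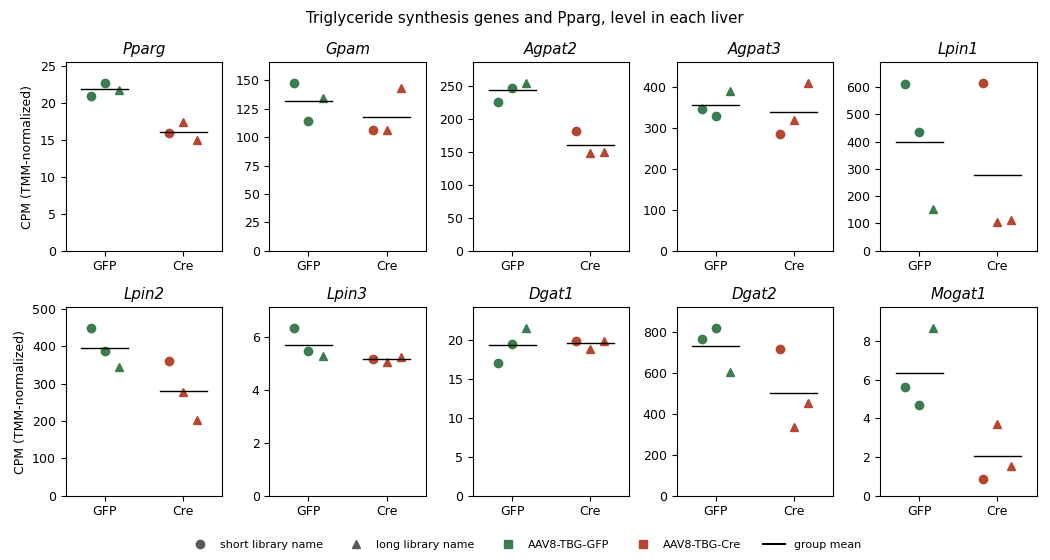
Level of each gene in each liver in CPM (TMM-normalized, linear axis from 0), with AAV8-TBG-GFP in green, AAV8-TBG-Cre in red, circles for short and triangles for long library names, and lines at the group means (n = 3). The groups of Pparg, Agpat2, Mogat1 and, by a narrow margin, Lpin3 do not overlap, and Lpin1 splits by the form of the library name.

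Over the whole table, 13431 genes passed the filter on low counts, all 10 genes among them. None of the 10 passed an adjusted p under 0.05 in edgeR, against 0.931% of all genes tested, and 3 of 10 had an unadjusted p under 0.05. At the study's threshold, an unadjusted p under 0.05 with a fold change of at least 1.2, Agpat2, Mogat1 and Pparg were lower in Cre livers, against a background of 8.41% of genes lower, and 0 of 10 were higher, against 12.0%. DESeq2 called the same 3 genes at an adjusted p under 0.05, where it called 7.44% of all genes with an adjusted p. The CPM ranges of the groups did not overlap, with Cre below GFP, for 4 of the 10 genes and for 13.0% of all genes. The log2 fold change was negative for 9 of 10 genes (51.0% of all genes tested), of which Gpam, Agpat3 and Lpin3 turned positive on the FPKM scale. Its median was -0.47 against -0.0065 over all genes. The FPKM scale moved the median of all genes up by 0.15 to 0.16 (log2) relative to the TMM scale. The TMM factor was 1.18 in Cre replicate 2 and 0.913 to 1.02 in the other 5 libraries.

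**Figure D2:**
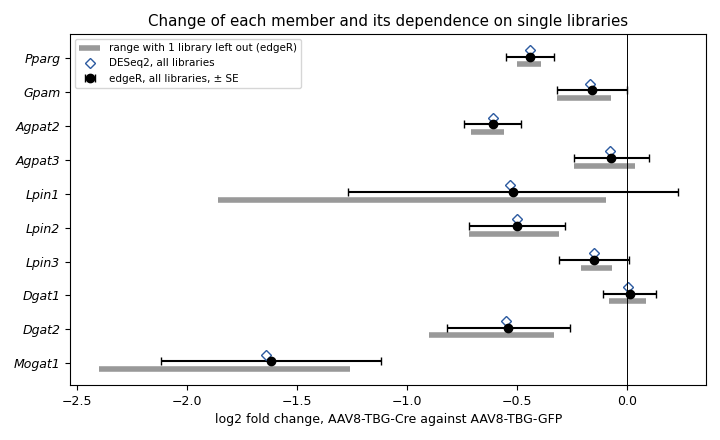
Log2 fold change of each gene, AAV8-TBG-Cre against AAV8-TBG-GFP, by edgeR with its SE (black), by DESeq2 (blue diamonds), and the range of the edgeR value when each of the 6 libraries was left out in turn (grey bars). Mogat1 has the lowest value (-1.62), Agpat2 and Pparg move little with any library, and the range of Lpin1 runs from -1.86 to -0.094. On the FPKM scale (not drawn) Gpam, Agpat3 and Lpin3 turn positive.

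Pparg, the receptor, lies on chromosome 6 at 115360879 to 115490404 (GRCm38.p6, plus strand). It read 21.0, 22.8 and 21.8 CPM in GFP replicates 1, 2 and 3, and 15.9, 17.5 and 15.0 CPM in Cre replicates 1, 2 and 3. Every Cre liver was below every GFP liver, and the spread within each group was small (21.9 ± 0.856 and 16.1 ± 1.28 CPM, SD, n = 3). The log2 fold change was -0.44 (SE 0.11, unadjusted p = 0.0035, edgeR adjusted p = 0.0821, DESeq2 adjusted p = 0.0374). An exact two-sided permutation test of log2 CPM gave p = 0.1, the smallest that 3 against 3 can give. In the deposited FPKM the groups overlapped, at 11.04, 11.69 and 10.25 FPKM in GFP and 8.66, 10.91 and 7.81 FPKM in Cre replicates 1, 2 and 3, through Cre replicate 2. On that scale the log2 difference was -0.28 to -0.25 in 3 limma fits and was not called. The ratio of Cre to GFP means was alike among short-named libraries (log2, -0.46) and long-named ones (-0.42), with 1 library on a side of each.

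The Pparg counts came from 4 transcripts, whose shared fragments the authors' estimation divided, so the split is less certain than the gene total. NM_011146 has the length of GENCODE transcript Pparg-201, which encodes 505 residues, the length of PPARγ2, the form with an extra amino-terminal stretch that adipocytes use most. Its expected counts were 209.55, 308.9 and 153.35 in GFP replicates 1, 2 and 3, and 98.59, 144.25 and 16.05 in Cre replicates 1, 2 and 3. All 3 Cre livers were below all 3 GFP livers, and Cre replicate 3 was nearly without it. The share of Pparg counts given to this transcript was 50.6%, 69.3% and 36.8% in GFP and 29.6%, 33.8% and 5.14% in Cre livers (exact two-sided permutation p = 0.1, the smallest possible). Fitted over all 17716 transcripts, its log2 fold change was -1.58 (SE 0.73, unadjusted p = 0.0768, edgeR adjusted p = 0.445). In CPM the transcripts of Agpat2, Lpin3 and Mogat1 were also lower without overlap, and NM_172950 of Lpin1 was higher. The share of all transcripts with such a separation was not counted.

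The other Pparg transcripts overlapped between the groups. NM_001308352 read 119.54, 23.07 and 47.32 expected counts in GFP and 136.86, 84.52 and 185.12 in Cre livers, a log2 fold change of 0.97 (SE 0.68, edgeR adjusted p = 0.626). NM_001127330 read 84.9, 114.03 and 216.33 in GFP and 97.55, 158.37 and 110.83 in Cre livers, a log2 fold change of -0.36 (SE 0.40, edgeR adjusted p = 0.788). NM_001308354 was given counts in 1 liver only, 39.86 in Cre replicate 2. Which of the Pparg starts these 3 transcripts use was not analysed here.

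**Figure D3:**
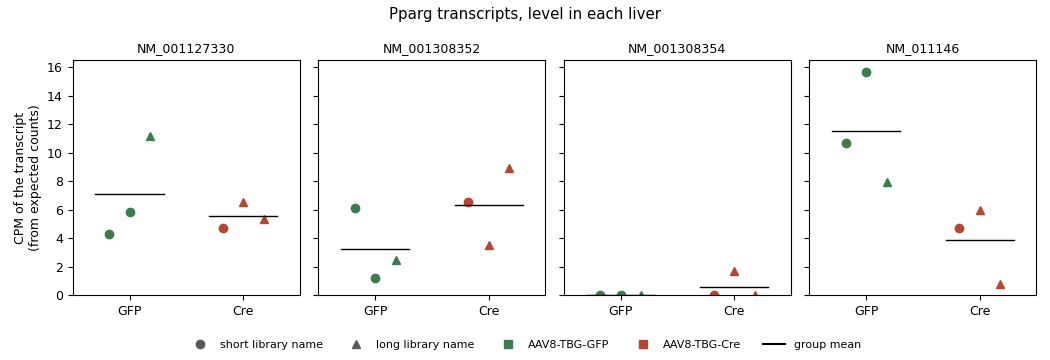
Level of the 4 Pparg transcripts in each liver, in CPM from expected counts (linear axis from 0), with colours, symbols and mean lines as in the plot of gene levels. The groups do not overlap for NM_011146, the PPARγ2 transcript, at 7.97 to 15.7 CPM in GFP and 0.772 to 5.98 CPM in Cre livers, and overlap for NM_001127330 and NM_001308352. The share of all transcripts whose groups do not overlap was not counted.

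The genes tracking Pparg most closely over the 6 libraries, by the root mean square difference of centred log2 CPM among 11296 genes, were Wdr91 (0.037), Mroh1 (0.0371) and Ptdss1 (0.0387), where the median gene stood at 0.289. Ptdss1 encodes a phosphatidylserine synthase. Their own log2 fold changes were -0.45, -0.46 and -0.45, values near that of Pparg that follow from the way they were chosen.

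Gpam, which encodes the first acyltransferase of the route, read 148, 114 and 134 CPM in GFP and 106, 106 and 143 CPM in Cre replicates 1, 2 and 3. Its groups overlapped, Cre replicate 3 lying within the GFP range. Its log2 fold change was -0.16 (SE 0.16, edgeR adjusted p = 0.627), and on the FPKM scale the difference was 0.002.

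Agpat2, the next acyltransferase and the one whose loss causes generalized lipodystrophy, lies on chromosome 2 at 26593057 to 26604417 (minus strand). It read 226, 247 and 255 CPM in GFP replicates 1, 2 and 3, and 181, 148 and 150 CPM in Cre replicates 1, 2 and 3. The groups did not overlap in CPM or in FPKM (139.3, 149.76 and 148.42 FPKM against 117.65, 111.34 and 94.35 FPKM). In edgeR it differed by a log2 fold change of -0.61 (SE 0.13, unadjusted p = 0.00174, edgeR adjusted p = 0.0674, DESeq2 adjusted p = 0.00041; exact two-sided permutation p = 0.1). It stayed lower at an unadjusted p under 0.05 in 16 of 16 alternative analyses, with values from -0.71 to -0.44. Without Cre replicate 1 its edgeR adjusted p was 0.0295.

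Agpat3, an acyltransferase of the same family with a broader range of acceptors, read 347, 329 and 391 CPM in GFP and 285, 320 and 412 CPM in Cre replicates 1, 2 and 3. The highest and the lowest of the 6 livers were both Cre livers. The log2 fold change was -0.071 (SE 0.17, edgeR adjusted p = 0.848), and 0.083 to 0.084 on the FPKM scale. Whether Agpat2 and Agpat3 differed in their response was not tested.

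Lpin1, the phosphatidate phosphatase that also serves as a transcriptional coregulator in the nucleus, varied more within each vector group than between the group means. It read 611, 436 and 154 CPM in GFP replicates 1, 2 and 3, and 616, 107 and 114 CPM in Cre replicates 1, 2 and 3. The 3 high livers were those with short library names, 2 GFP and 1 Cre, and the 3 low livers those with long names, 1 GFP and 2 Cre. With the vector in the fit, Lpin1 was 4.35-fold higher in short-named libraries (log2, long minus short, -2.12, SE 0.21, edgeR adjusted p = 0.0184), the one gene of the 10 that passed, where 1.39% of all genes did. The split was the same in its main transcript NM_015763, the 924-residue form by its GENCODE match, at 10279.94, 7506.02 and 10932.54 expected counts in short-named and 2579.28, 2286.1 and 2033.12 in long-named libraries. The minor transcript NM_172950 was given 0 expected counts in the GFP livers and 4.14, 30.46 and 26.85 in Cre replicates 1, 2 and 3. These were at most 1.16% of the gene, and this transcript did not pass the filter on low counts.

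The vector difference of Lpin1 was smaller than that split. Its log2 fold change was -0.52 (SE 0.75, edgeR adjusted p = 0.74), -0.12 (SE 0.20) with the name form in the fit, and -1.86 without Cre replicate 1 (adjusted p = 0.0742). Leaving out GFP replicate 1, Cre replicate 2 or Cre replicate 3 brought it to -0.094, -0.14 or -0.15, and leaving out GFP replicate 3 to -0.92. The short-named group holds 2 of 3 GFP livers and the long-named group 2 of 3 Cre livers, and what the name form stands for was not tested.

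Lpin2, the lipin that is most characteristic of liver, read 450, 388 and 345 CPM in GFP and 360, 278 and 202 CPM in Cre replicates 1, 2 and 3. The groups overlapped through Cre replicate 1, which lay just above GFP replicate 3. Its log2 fold change was -0.50 (SE 0.22, unadjusted p = 0.0571, edgeR adjusted p = 0.255), and -0.37 (SE 0.17) with the name form in the fit. It was -0.31 without Cre replicate 3 and -0.72 without Cre replicate 1 (edgeR adjusted p = 0.0693), where it passed the unadjusted threshold. Of its transcripts, NM_001164885 read 5136.87, 4336.27 and 2637.68 expected counts in GFP and 2976.98, 2684.11 and 1758.48 in Cre replicates 1, 2 and 3, a log2 fold change of -0.87 (SE 0.30, unadjusted p = 0.028, edgeR adjusted p = 0.319). NM_022882 read 3717.99, 3265.74 and 3949.24 in GFP and 4558.93, 4081.9 and 2430.84 in Cre livers (log2 fold change -0.15, SE 0.24).

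Among the 14 tested of the 16 transcripts of the 10 genes, 3 were lower at an unadjusted p under 0.05 with a fold of at least 1.2, those of Agpat2 and Mogat1 and NM_001164885 of Lpin2, where 5.75% of all transcripts were. No transcript of any gene passed an adjusted p under 0.05 in edgeR, and 2306 of 17716 had an unadjusted p under 0.05.

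Lpin3, the remaining lipin, was the least abundant of the 10 genes by mean FPKM and read 6.35, 5.46 and 5.29 CPM in GFP and 5.15, 5.05 and 5.25 CPM in Cre replicates 1, 2 and 3. The groups did not overlap in CPM, but before scaling GFP replicate 3 had fewer counts (101) than Cre replicate 3 (109), and the FPKM ranges overlapped. In edgeR it differed by a log2 fold change of -0.15 (SE 0.16, edgeR adjusted p = 0.651), and 0.016 to 0.026 on the FPKM scale.

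Dgat1, one of the 2 unrelated enzymes of the last step, read 17.0, 19.5 and 21.6 CPM in GFP and 19.9, 18.8 and 19.9 CPM in Cre replicates 1, 2 and 3. All Cre livers lay inside the GFP range, and the log2 fold change was 0.012 (SE 0.12, edgeR adjusted p = 0.967). Leaving out single libraries moved it from -0.08 to 0.086, through 0.

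Dgat2, the enzyme of the last step that is linked to newly made fatty acids, read 769, 823 and 606 CPM in GFP and 718, 334 and 454 CPM in Cre replicates 1, 2 and 3. Cre replicates 2 and 3 were below all GFP livers and Cre replicate 1 was inside their range. The log2 fold change was -0.54 (SE 0.28, unadjusted p = 0.0912, edgeR adjusted p = 0.32). Like Lpin1 it was lower in the long-named libraries of each vector, with a log2 difference of -0.63 (SE 0.18, edgeR adjusted p = 0.152), and with the name form in the fit the vector difference was -0.38 (SE 0.18, adjusted p = 0.285). Without Cre replicate 1 it was -0.90 (adjusted p = 0.0507), and without Cre replicate 2 it was -0.33.

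Mogat1, the monoacylglycerol acyltransferase, lies on chromosome 1 at 78511060 to 78606964 (plus strand). It had 111, 92 and 166 counts in GFP replicates 1, 2 and 3, and 18, 90 and 32 counts in Cre replicates 1, 2 and 3, which are 5.64, 4.69 and 8.69 CPM against 0.859, 3.7 and 1.54 CPM. Every Cre liver was below every GFP liver in CPM and in FPKM, Cre replicate 2 by the smallest margin. Its log2 fold change was -1.62 (SE 0.50, unadjusted p = 0.0122, edgeR adjusted p = 0.132, DESeq2 adjusted p = 0.0214; exact two-sided permutation p = 0.1). It was lower at an unadjusted p under 0.05 in 16 of 16 alternative analyses, between -2.40 without Cre replicate 2 and -1.15 on the scale of log2(FPKM + 1). With the name form in the fit it was -2.07 (SE 0.39, edgeR adjusted p = 0.0523), and the difference between long-named and short-named libraries was 1.09 (SE 0.39, adjusted p = 0.222).

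The genes with the pattern most like that of Mogat1 over the 6 libraries were Tpm2 (root mean square difference 0.252), Cyp2c38 (0.364) and Acot3 (0.374), where the median of 11296 genes was 1.11. Tpm2 encodes a tropomyosin, Cyp2c38 a cytochrome P450 and Acot3 an acyl-CoA thioesterase of peroxisomes.

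Beyond the 10 genes, 19 other genes of glycerolipid synthesis were tested, covering fatty acid activation, glycerol supply and the isoenzymes of each step. By the unadjusted threshold in edgeR, 2 were lower and 2 higher, where 8.41% and 12.0% of all genes tested were, and the median log2 fold change was -0.11. None passed an adjusted p under 0.05 in edgeR. In DESeq2, 2 passed it, Plpp3 (adjusted p = 0.000466) and Acsl4 (0.00221), where 7.44% of all genes with an adjusted p did. Plpp3, a lipid phosphate phosphatase, was lower at 293, 290 and 334 CPM in GFP against 225, 195 and 208 CPM in Cre livers (log2 fold change -0.54, SE 0.12, adjusted p = 0.0766), and Gpat2, an isoenzyme of the first step, was lower near the detection limit (1.68 to 3.05 against 0.954 to 1.93 CPM). Acsl4, which activates long polyunsaturated fatty acids, was higher at 51.6, 51.5 and 37.9 CPM in GFP against 72.4, 75.4 and 89.4 CPM in Cre livers (0.75, SE 0.15, adjusted p = 0.0619), and Plpp2 was higher by 0.44 (SE 0.19, adjusted p = 0.235). Other isoenzymes of the members' steps did not pass the unadjusted threshold, with log2 fold changes of 0.0034 (SE 0.14) for Gpat4, 0.18 (SE 0.098) for Agpat1, -0.58 (SE 0.29) for Gpat3 and 0.21 (SE 0.66) for Mogat2.

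A list of 14 genes held partners and coregulators of PPARγ, related receptors such as Ppara, and the factors Cebpa and Cebpb. Of these genes, 3 were lower and 0 higher by the unadjusted threshold in edgeR (8.41% and 12.0% of all genes tested). None passed an adjusted p under 0.05 in edgeR. In DESeq2, 2 passed it, Ppara (adjusted p = 0.00122) and Cebpb (0.00132), where 7.44% of all genes with an adjusted p did. Ppara, the fatty acid oxidation receptor of hepatocytes, stood at 606, 615 and 572 CPM in GFP and 446, 371 and 437 CPM in Cre livers (log2 fold change -0.52, SE 0.14, edgeR adjusted p = 0.097). Cebpb, a factor that acts upstream of Pparg in adipocyte differentiation, stood at 251, 231 and 256 CPM in GFP and 187, 139 and 145 CPM in Cre livers (-0.65, SE 0.15, adjusted p = 0.0735). Rxrg, a minor RXR in liver, was lower as well (-0.70, SE 0.24, adjusted p = 0.158). Rxra, the abundant RXR with which PPARγ pairs, was at 637 to 713 CPM in GFP and 573 to 662 CPM in Cre livers (-0.10, SE 0.14, adjusted p = 0.721).

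The 13 tested genes of a list of 14 PPARγ targets had a median log2 fold change of -0.53. By the unadjusted threshold in edgeR, 6 were lower and 1 higher (8.41% and 12.0% of all genes tested). The part of Pparg, or of Ppara, in the levels of these genes was not tested. An adjusted p under 0.05 was passed by 3 of the 13 in edgeR (0.931% of all genes tested). In DESeq2 it was passed by 6 lower genes and 1 higher gene (7.44% of all genes with an adjusted p). These included Plin4 (adjusted p = 2.31e-06), G0s2 (0.00801), Angptl4 (0.0104) and Fitm2 (0.0132). Cidea, a lipid droplet protein that fuses droplets, fell from 3.76, 9.23 and 13.9 CPM in GFP to 0.382, 0.575 and 0.337 CPM in Cre livers, 20.3-fold (log2 fold change -4.34, SE 0.54, edgeR adjusted p = 0.033). The size of that fold is uncertain, as the Cre values rest on 8, 14 and 7 counts. In limma on log2(FPKM + 1) the Cidea difference was -2.43. Fitm1, an endoplasmic reticulum protein of droplet formation, fell from 68.9, 84.2 and 77.4 CPM to 16.3, 30.5 and 22.7 CPM, 3.31-fold (-1.73, SE 0.22, adjusted p = 0.033). The groups overlapped for neither gene. Among the 6 fits that left out 1 library, Fitm1 passed an adjusted p under 0.05 only without Cre replicate 1 and Cidea only without Cre replicate 1 or GFP replicate 1, and the adjusted p was highest without GFP replicate 2 (0.118 for Cidea, 0.134 for Fitm1). Neither passed in limma on log2(FPKM + 1), and on log2(FPKM + 0.1) Cidea passed and Fitm1 did not.

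Plin4, a droplet coat protein, was lower just outside the adjusted threshold, at 69.5, 63.9 and 135 CPM against 26.4, 32.2 and 21.8 CPM (-1.74, SE 0.30, edgeR adjusted p = 0.0509). G0s2, the inhibitor of the triglyceride lipase ATGL, had a log2 fold change of -1.06 (SE 0.29, adjusted p = 0.104), Angptl4, an inhibitor of lipoprotein lipase, of -0.91 (SE 0.25, adjusted p = 0.107), and Fitm2 of -0.52 (SE 0.12, adjusted p = 0.077). Lpl, lipoprotein lipase itself, went the other way, from 16.9, 12.7 and 26.3 CPM in GFP to 81.8, 181 and 90.3 CPM in Cre livers (2.66, SE 0.38, adjusted p = 0.0363). Its call was lost on leaving out any library except Cre replicate 1 (adjusted p up to 0.148, without GFP replicate 2) and in limma on log2(FPKM + 1) or log2(FPKM + 0.1). The part of other cell types in the level of Lpl was not tested. Cidec (-1.17, SE 0.51), Plin2 (-0.53, SE 0.27), Cd36 (-0.41, SE 0.28) and Fabp4 (0.11, SE 0.23) overlapped between the groups.

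**Figure D4:**
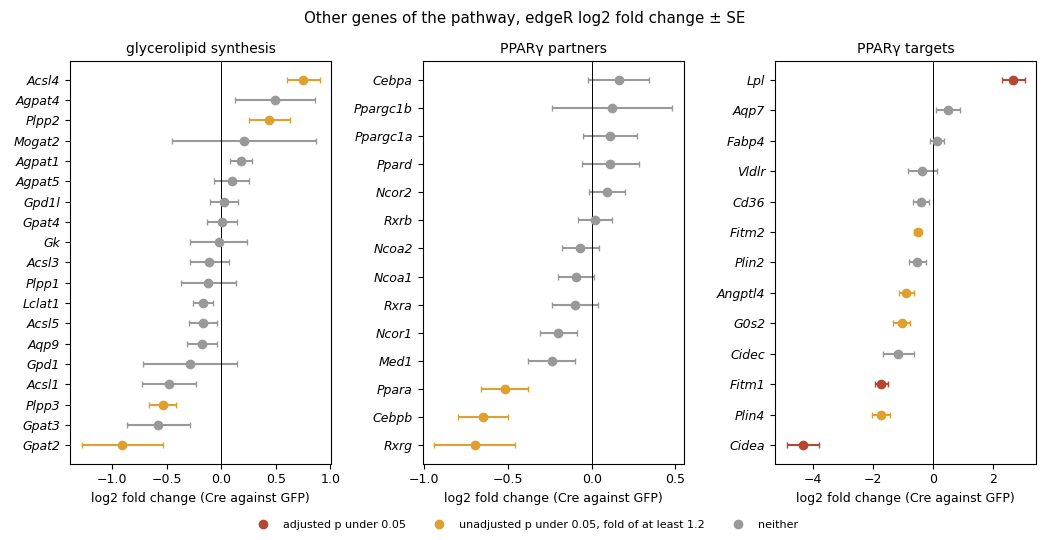
Log2 fold change with SE (edgeR, Cre against GFP) of the genes tested, each panel on its own axis. The panels hold other glycerolipid synthesis genes, the PPARγ partner list (with coregulators, related receptors and Cebp factors) and the PPARγ targets. Red marks an adjusted p under 0.05, and yellow only an unadjusted p under 0.05 with a fold of at least 1.2. Cidea and Fitm1 are lower and Lpl is higher in red, and most genes of the partner list and of synthesis lie near 0.

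Several of these targets are also adipocyte genes, so adipocyte markers were read beside them. Of 7 markers, Cfd (adipsin) fell from 9.25, 20.5 and 24.7 CPM to 0.764, 0.616 and 0.626 CPM (log2 fold change -4.75, SE 0.42, edgeR adjusted p = 0.0149, or up to 0.0827 with GFP replicate 2, Cre replicate 2 or Cre replicate 3 left out), and the summed level was 51.0 to 74.9 CPM in GFP and 26.4 to 41.5 CPM in Cre livers. The defining markers Adipoq, Plin1 and Retn were at or under 0.575 CPM in all 6 livers, Adipoq at 0.204 to 0.366 CPM in GFP and 0.433 to 0.575 CPM in Cre livers, and none of the 7 was at 0 in all libraries. Of the 4 markers that passed the filter on low counts, Cfd and Adrb3 were lower and 0 higher by the unadjusted threshold (8.41% and 12.0% of all genes tested). The part of adipocytes in these values was not tested. In CPM, all 3 Cre livers were above all 3 GFP livers in Adipoq, the adiponectin gene, and below them in Cfd, Cidea and Pparg. Adipoq had 4 to 14 counts and did not pass the filter, and the Pparg groups overlapped in FPKM. Of all genes tested, 13.0% had every Cre liver below every GFP liver in CPM.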

How the data were processed

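Total liver RNA of 6 mice, 3 per vector, was sequenced on a DNBSEQ platform. The authors deposited, for each library, an expected count (an estimated number of fragments, not normalized) and an FPKM per transcript, and a table of FPKM per gene scaled by length and mapped fragments. The submitters' processing notes list HISAT2, Bowtie2, RSEM and mm10, while the study's methods name STAR, HTSeq and DESeq2, all without versions. Samples were grouped by the vector in their titles.

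Expected counts were summed per NCBI gene ID and rounded. Genes were tested with edgeR 4.0.16 (R 4.3.3, quasi-likelihood, TMM, filterByExpr, Benjamini-Hochberg over all genes), and transcripts likewise. Standard errors were derived from the quasi-F statistic. The p-values of the fits set the difference between the vectors against the variation within the groups of these 6 livers. The steps were tested on simulated counts. The alternatives were DESeq2 1.42.0, 2 normalizations, 2 count filters, the replicate number or the library name form as covariate, limma 3.58.1 on FPKM (pseudocount 1 or 0.1, requiring an FPKM of 0.5 in 3 libraries, or without that filter), a fold of 1.5, and leaving out each library. No sample was left out and libraries of a group differed by more than sampling noise (chi-square per gene of at least 26.5).

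The genes, lists, name form covariate and tests were chosen with earlier results of these data known. The text names the 10 genes, Mettl14, genes of the lists past the unadjusted threshold or with a described role, and the 3 genes most like Pparg and Mogat1 among those with a mean log2 CPM of at least 1. Promoters were read from RefSeq windows of GRCm38.p6. Transcript lengths were matched to GENCODE vM1, and no coordinates were taken from it.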

Additional observations from a re-analysis of the deposited data

How the results depend on the processing

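Of the 10 genes, 3 passed an adjusted p under 0.05 and 5 the unadjusted threshold with DESeq2, which added Dgat2 and Lpin2 to the latter. With 1 library left out, 0 to 1 genes passed the former and 3 to 6 the latter. Of the whole table, 2747 of 13431 genes passed the unadjusted threshold with all libraries, 2976 of 18416 with DESeq2 and 3730 of 13678 without Cre replicate 1. The upper ends of both ranges came without Cre replicate 1, where 928 genes of the whole table passed adjustment, against 125 with all libraries and 0 to 17 without any other library. A fold of at least 1.5 left 2 genes, Agpat2 (1.52-fold lower) and Mogat1 (3.08-fold lower). The share of all genes past that fold was not counted, so the 2 cannot be set against a background. Pparg, Agpat2, Lpin1, Lpin2, Dgat2 and Mogat1 stayed negative in 16 of 16 alternatives. The sign turned for genes near 0. In the limma fits on log2(FPKM + 1), log2(FPKM + 0.1) and the unfiltered table, Gpam was at 0.002, 0.0021 and 0.002, Agpat3 at 0.083, 0.084 and 0.083, and Lpin3 at 0.016, 0.026 and 0.016. With 1 library left out, Agpat3 lay between -0.24 and 0.038 (without Cre replicate 1) and Dgat1 between -0.08 and 0.086. Dgat1 was at -0.017 with the name form in the fit, and negative without GFP replicate 1, Cre replicate 1 or Cre replicate 3. Over the whole table, 58.9% of the genes past the unadjusted threshold were higher, 72.3% with upper quartile normalization and 83.7% to 84.7% on the FPKM scale. Calls among the whole table were 66 with upper quartile normalization, 372 without a count filter, 76 with at least 10 counts in every library, 214 with the name form, 1157 with DESeq2, and 9 to 27 with limma.

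The deviations of same-numbered livers from their group means correlated at 0.0091, -0.26 and 0.21, and those of different-numbered livers at -0.28 to 0.31. With 3 livers in a group, these values cannot decide whether the numbers mark pairs. Both livers numbered 1 have short library names and both numbered 3 have long ones. With the replicate number as a block, 0 of the 10 genes passed adjustment, where 7 of 13431 genes of the whole table did. The unadjusted threshold was passed by 4 of the 10 and by 2597 of the whole table. For transcripts, 0 of those of the 10 genes passed adjustment under the block. Under the block Cfd stayed past an adjusted p of 0.05, and Cidea, Fitm1 and Lpl did not. Counting error is largest for Mogat1 and Lpin3.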
